A study of Mus musculus with 2207 samples.

Results

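The nuclei described here are the oligodendrocytes of the 96-well plates of a single-nucleus RNA-seq study of the mouse cortex: 71 nuclei labelled Ehmt1delta/+ and 73 labelled WT, of 2207 nuclei of all cell types and pools. They were chosen by the cell type and the condition in the sample labels, with no use of the measured values. The question was which genes differed in level between oligodendrocytes of *Ehmt1* heterozygous mice and those of WT mice. The nuclei labelled Ehmt1delta/+ carry 1 copy of a deleted *Ehmt1* allele, and the WT nuclei are *Ehmt1*+/+. All mice were C57BL/6, 14 weeks old, and had been given tamoxifen from 3 weeks of age, in 2 doses of 100 mg/kg. The study's methods place the doses 1 week apart. The nuclei of a genotype came from 1 pool of 3 mice, male per the study's methods, and the labels do not say which mouse a nucleus came from. A genotype is therefore 1 sample here. The SDs below are across nuclei, and no p-value is given for the 96-well pools alone.

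Oligodendrocytes wrap axons of the central nervous system in myelin, a stack of membrane rich in cholesterol, galactolipids and proteins such as Mbp and Mag. *Ehmt1* encodes GLP, which forms a complex with G9a (*Ehmt2*) and puts the mono- and dimethyl marks on lysine 9 of histone H3, marks of silent genes in euchromatin. Loss of 1 copy of the human gene causes Kleefstra syndrome. RamDA-seq, the method used, primes total RNA at random, so it also reads RNA without a poly(A) tail and unspliced RNA of the nucleus.

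The technical spread came from the plate codes in the sample names. WT nuclei carry 4 codes (ending 002, 003, 004 and 005, with 21, 14, 18 and 20 nuclei) and nuclei labelled Ehmt1delta/+ carry 4 (002, 004, 005 and 007, with 20, 17, 14 and 20), of which 3 are shared. Well names repeat within a code, so a code stands for more than 1 plate. Read totals were alike, with a median of 441701 (269646 to 643880) in WT and 478605 (342065 to 593110) in nuclei labelled Ehmt1delta/+. Other mice of the study gave 4 more pools of oligodendrocytes in 384-well plates. Depth there was lower, with median read totals of 49635 to 54877 per pool. Their labels are *Ehmt1*+/+ with the inducible transgene *Ehmt1* iTg and without the Cre line CamKII-CreER (69 nuclei), Ehmt1delta/+ with the same transgene and without CamKII-CreER (46 nuclei), *Ehmt1*+/+ with *Ehmt1* iTg and CamKII-CreER (71 nuclei), and Ehmt1delta/+ with *Ehmt1* iTg and CamKII-CreER (67 nuclei). CamKII-CreER is active in forebrain neurons. These 2 *Ehmt1*+/+ and 2 Ehmt1delta/+ pools have the same age and treatment, and their values are set beside those of the 96-well plates, in the order *Ehmt1*+/+ without and with CamKII-CreER, then Ehmt1delta/+ without and with it.

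The cell type label was checked against markers. All 10 oligodendrocyte markers (among them *Olig1*, *Olig2*, *Sox10*, *Mbp*, *Mog*, *Mag*, *Mobp*, *Cnp* and *Opalin*) were read in 90% or more of the nuclei, in either genotype, and their summed level was 2390 to 7923 RPKM in WT and 2353 to 7762 in nuclei labelled Ehmt1delta/+. The 4 precursor markers summed to a median of 0.99 RPKM in WT (0 to 38) and 3.85 in nuclei labelled Ehmt1delta/+ (0 to 40.6). At least 1 of them was above 0 in 42 and 48 nuclei. Among them, *Pdgfra* was above 0 in 2 WT nuclei and 1 nucleus labelled Ehmt1delta/+. Markers of other cells were low but not absent. The 6 neuronal markers summed to a median of 53.2 RPKM in WT (1.09 to 284.6) and 14.5 in nuclei labelled Ehmt1delta/+ (0 to 77). The 6 microglial markers summed to a median of 0 in each genotype (up to 34.3 and 17.2), with *Tmem119* at 0 in every nucleus labelled Ehmt1delta/+. The 5 astrocyte markers had medians of 17.5 (0 to 98) and 6.35 (0 to 55.8). The 4 endothelial and mural markers had a median of 0 in each genotype (up to 16.4 and 16.2), with *Flt1* at 0 in every WT nucleus and *Cldn5* and *Pdgfrb* at 0 in every nucleus labelled Ehmt1delta/+. One WT nucleus, of code 003, stood apart with 11.2% of its reads on neuron-enriched genes, against at most 4.40% in any other nucleus. Its oligodendrocyte genes were in the usual range (*Mbp* at 887 RPKM). The values without it are given beside the neuron-enriched share and *Cacna1b*, and for *Snhg11* in the closing section.

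*Ehmt1* itself (chr2:24789928-24919614 in mm10, minus strand) was not lower in the nuclei labelled Ehmt1delta/+. Its mean was 17.5 ± 10.1 RPKM (SD, 73 nuclei) in WT and 25.8 ± 13.9 (71 nuclei) in nuclei labelled Ehmt1delta/+. The 4 plate means were 16.8, 17.9, 20.1 and 15.6 in WT and 29.1, 23, 27.1 and 24 in the other genotype, so they did not overlap. The 384-well pools gave 21.8 and 20.9 RPKM in *Ehmt1*+/+ and 32.6 and 28.3 in Ehmt1delta/+, and neurons of the 96-well plates gave 18.7 and 31.2. The gene total thus goes in the direction opposite to the loss of 1 copy in every pool, and the values do not say which part of the gene the reads come from. The nuclei are therefore called by their label, and every direction below rests on that label. G9a (*Ehmt2*) was at 19.7 RPKM in WT and 18 in nuclei labelled Ehmt1delta/+. Of 27 measured genes of H3K9 methylation and its readers, 0 passed 2-fold, with a median log2 ratio of −0.03.

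The comparison covered 20177 genes, those read in 10% or more of the WT nuclei or of the nuclei labelled Ehmt1delta/+. The log2 ratio sets the mean RPKM of nuclei labelled Ehmt1delta/+ against the WT mean, with 0.1 added to each, and this makes the ratio of weakly read genes smaller than it is. Of these genes, 806 (3.99%) were at least 2-fold higher in nuclei labelled Ehmt1delta/+ and 1549 (7.68%) at least 2-fold lower, and the median log2 ratio was −0.04. The plate means of the genotypes did not overlap for 537 genes that were higher (2.66%) and 984 that were lower (4.88%), of any size of difference. These shares are the background for every count below.

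To set the RNA of oligodendrocytes apart from RNA of other cells, each gene was put in a class by its level in all neurons, oligodendrocytes and microglia of the 384-well plates, which are other nuclei. An oligodendrocyte-enriched or microglia-enriched gene had at least 4 times the level of both other cell types. A neuron-enriched gene had at least 4 times the level of oligodendrocytes, with no such rule against microglia. The classes differed in direction. Among 1104 oligodendrocyte-enriched genes, 77 (6.97%) were 2-fold higher and 25 (2.26%) 2-fold lower, with a median of 0.08. Among 2077 neuron-enriched genes, 7.32% were higher and 583 (28.1%) lower, with a median of −0.39. Of 23 mitochondrially encoded genes, 0 were higher and 22 (95.7%) lower, with a median of −1.44. The 13957 genes shared by the cell types had 361 (2.59%) higher and 665 (4.76%) lower, and the 744 microglia-enriched genes 45 (6.05%) and 72 (9.68%). The oligodendrocyte-enriched class was the only one of these 5 with more genes 2-fold higher than lower.

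**Figure D1:**
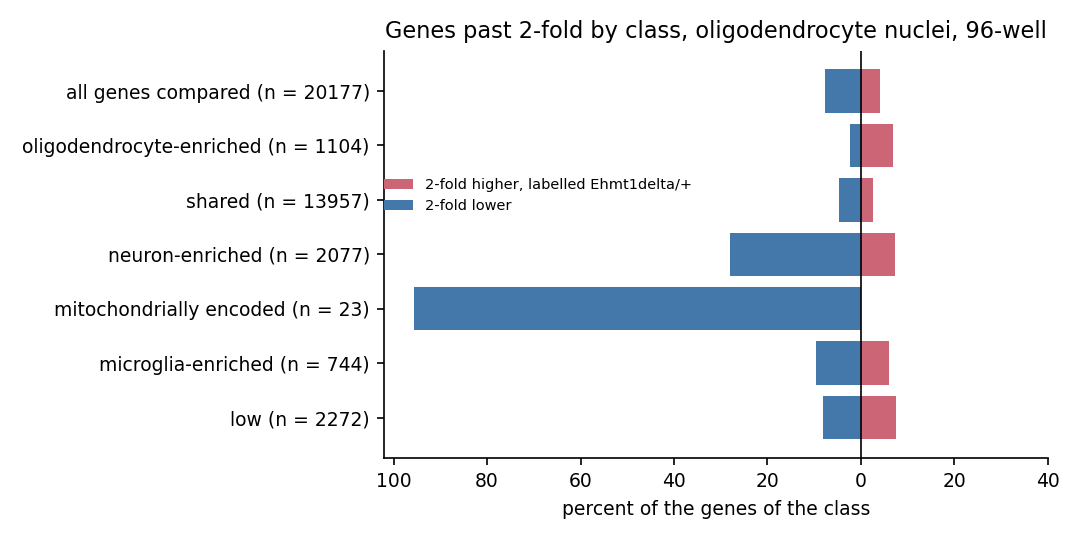
Percent of the genes of each class that were at least 2-fold higher (red, to the right) or lower (blue, to the left) in oligodendrocyte nuclei labelled Ehmt1delta/+ than in WT, with the number of genes compared in each class. The mitochondrially encoded (95.7% lower) and neuron-enriched genes (28.1% lower) lean to the left, and the oligodendrocyte-enriched genes (6.97% higher against 2.26% lower) lean to the right.

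The oligodendrocyte-enriched genes that were higher are described first. For 46 of them the level was 2-fold higher and the plate means did not overlap, against 1 gene, the heat shock gene *Hspa1b*, in the other direction. In the 384-well plates, 32 of the 46 (69.6%) had both Ehmt1delta/+ pools above both *Ehmt1*+/+ pools, and 0 had them below. The background for that order was 20% of all genes compared and 21.6% of the oligodendrocyte-enriched class for above, and 13.5% of all genes for below. The class was set on those same 384-well nuclei, so genes high in the Ehmt1delta/+ pools enter it more easily. With the class set on the 96-well pools instead, an alternative chosen after seeing the data, 34 of 53 genes (64.2%) were above in the 384-well pools against 22.8% of the class, and with the class set on the *Ehmt1*+/+ 384-well pools alone 23 of 35 (65.7%) against 17.1%. Of shared and of neuron-enriched genes higher with plate means apart, 21 of 89 (23.6%) and 7 of 36 (19.4%) were above, near the background of all genes. With 2 pools a side, an exact permutation test of a single gene cannot give a two-sided p below 0.333. Of the 46, 11 have a symbol of their own (8 of 11 above in the 384-well pools), and 35 are predicted genes, pseudogenes or small RNAs (24 of 35). On chromosome 13 lie 9, of which 8 were above in the 384-well pools. Most of these are the genes at one end of *Adgrv1* that can share reads (below), and the share of the class on that chromosome was not computed. Some of the 46 overlap one another, as near *Clca4a*, *Adgrv1*, *Lama2* and *Bfsp2* (below), and can share reads. They are therefore not 46 separate measurements, and the shares above count them as if they were.

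*Clca4a*, of a family of secreted regulators of chloride channels (chr3:144952480-144975045, minus strand), had the highest log2 ratio of the class at 7.17 (4.64 to 8.15 over the alternatives). Its mean was 0.0809 ± 0.446 RPKM in WT and 25.9 ± 74 in nuclei labelled Ehmt1delta/+. It was above 0 in 3 of 73 WT nuclei (4.11%, exact 95% interval 0.856 to 11.5), all of code 002, and in 22 of 71 nuclei labelled Ehmt1delta/+ (31%, 20.5 to 43.1). The WT plate means were 0.281, 0, 0 and 0 RPKM, and the others 25.9, 71.4, 4.03 and 2.46. The groups did not overlap, but the level was uneven: most nuclei labelled Ehmt1delta/+ were at 0, the 22 others had a median of 40.2 RPKM, and the highest reached 350. The intervals here and below cover counting error only. In the 384-well plates *Clca4a* was above 0 in 1 of 69 and 0 of 71 *Ehmt1*+/+ nuclei (the latter allows up to 4.23%), and in 6 of 46 and 9 of 67 Ehmt1delta/+ nuclei.

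The neighbours of *Clca4a* were higher too. All 5 genes compared within 100 kb, itself included, were 2-fold higher, and 4 were above in both Ehmt1delta/+ pools of the 384-well plates. *Clca4b* was at 0.0115 RPKM in WT and 2.96 in nuclei labelled Ehmt1delta/+, and the pseudogene *Clca4c-ps* at 0.00208 and 1.4. The antisense gene *Gm16233* overlaps *Clca4a* and was at 0.332 and 41.8 RPKM, and the long noncoding RNA *Gm35066* was at 0 in WT and 5.63. Among nuclei labelled Ehmt1delta/+, all 22 with *Clca4a* had *Gm16233*, 17 of them had *Clca4b* and 18 had *Clca4c-ps*, and no nucleus without *Clca4a* had any of these 3. The counting was unstranded, and overlapping genes and close copies of this locus can share reads. The neighbourhoods were looked at after the values of the leading genes had been seen.

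*Adgrv1* (chr13:81095068-81633154, minus strand), a very large adhesion receptor, showed the same kind of pattern. It was at 0.354 ± 0.835 RPKM in WT and 2.45 ± 3.04 in nuclei labelled Ehmt1delta/+, a log2 ratio of 2.49, and was above 0 in 22 and 50 nuclei. Its plate means were 0.202 to 0.423 in WT and 1.52 to 3.17 in the other genotype. Among the 384-well nuclei it was at 0.0576 and 0.0735 RPKM in *Ehmt1*+/+ and at 0.455 and 1.21 in Ehmt1delta/+. By its 384-well levels the gene was in the class low in every cell type. At its end towards lower coordinates, the antisense gene *9330111N05Rik*, which overlaps it, was at 5.52 and 40.8 RPKM, a log2 ratio of 2.86. The pseudogenes *Gm48549*, *Gm4813*, *Gm18517* and *Gm8399* and the miRNA gene *Gm25241* had log2 ratios of 3.04, 2.79, 3.06, 1.92 and 2.48. These lie within the span of *9330111N05Rik*, so without strand they can share its reads. Of the 11 genes compared within 100 kb, *Adgrv1* included, 7 were 2-fold higher, and all 7 were above in both Ehmt1delta/+ pools of the 384-well plates. On the far side, *Lysmd3*, *Polr3g* and *Mblac2* had log2 ratios of −0.26, 0.48 and −0.65. Besides *Adgrv1* itself, the genes that were higher thus lay at one end of it. Because *9330111N05Rik* overlaps *Adgrv1*, without strand they can share reads. Of the 50 nuclei labelled Ehmt1delta/+ with *Adgrv1*, 48 also had *9330111N05Rik*. Of 71 nuclei labelled Ehmt1delta/+, 14 had *Clca4a* and *Adgrv1*, 8 only *Clca4a*, 36 only *Adgrv1* and 13 neither.

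*Lama2*, the alpha 2 chain of laminin and a part of basement membranes (chr10:26980036-27619758, minus strand), had plate means of 12.2, 7.69, 12.7 and 11 RPKM in WT and of 24.3, 33.9, 32 and 23.9 in nuclei labelled Ehmt1delta/+. The means over nuclei were 11.2 ± 14.3 and 28 ± 27, a log2 ratio of 1.32, with 52 of 73 and 65 of 71 nuclei above 0. In the 384-well plates it was at 9.48 and 8.85 RPKM in *Ehmt1*+/+ and at 23.6 and 27.9 in Ehmt1delta/+, nearly the same levels. All 6 genes compared within 100 kb, itself included, were 2-fold higher, and 3 of them were above in both Ehmt1delta/+ pools of the 384-well plates. The others are pseudogenes, antisense genes and an unclassified transcript that overlap *Lama2* and can share its reads.

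*Bfsp2*, an intermediate filament protein best known from the lens (chr9:103424924-103480420, minus strand), was at 12.4 ± 18.1 RPKM in WT and 32.1 ± 32.6 in nuclei labelled Ehmt1delta/+, a log2 ratio of 1.36. Its plate means were 9.61 to 16.2 and 27.1 to 37.1. The 384-well pools were at 24.6 and 27.5 RPKM in *Ehmt1*+/+ and at 46.3 and 44.7 in Ehmt1delta/+. Of 11 genes compared within 100 kb, itself included, 4 were 2-fold higher and 2 lower. Those higher include the antisense genes *5830418P13Rik* (8.27 and 21.3 RPKM) and *Gm16252* (2.27 and 6.27), which overlap *Bfsp2*.

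The other leading genes of the class were enzymes, transporters and adhesion proteins. *Cyp4f14*, a cytochrome P450 of fatty acid hydroxylation, was at 0.83 ± 4.18 RPKM in WT and 6.77 ± 10.9 in nuclei labelled Ehmt1delta/+ (5 and 27 nuclei above 0). *Cldn17*, a claudin of tight junctions, was at 2.78 ± 10.2 and 8.62 ± 12.5 (9 and 31 nuclei). *Itih3*, a hyaluronan-binding serum protein, was at 3.48 ± 6.52 and 10.2 ± 13.5. *Ddc*, the decarboxylase that makes dopamine and serotonin, was at 3.9 ± 6.05 and 12.5 ± 15.1. These 4 had log2 ratios of 2.88, 1.60, 1.52 and 1.66, and in each the Ehmt1delta/+ pools of the 384-well plates were also above the *Ehmt1*+/+ pools. *Slc51b*, a subunit of a steroid and bile acid transporter, had a log2 ratio of 1.64 but went the other way in the 384-well pools without CamKII-CreER, at 2.15 RPKM in *Ehmt1*+/+ and 0.408 in Ehmt1delta/+. *Rasl12* had a log2 ratio of 1.18 (0.95 with a pseudocount of 1 RPKM), and its 384-well pools were at 5.89 and 3.53 RPKM in *Ehmt1*+/+ and at 6.86 and 9.62 in Ehmt1delta/+, the same order. *Cyp3a13* had a log2 ratio of 1.10, which was 0.89 with only the 3 shared plate codes and 0.99 without the code 007, and its 384-well pools overlapped, at 14.4 and 19.5 RPKM in *Ehmt1*+/+ and 17.4 and 15 in Ehmt1delta/+. Of these 10 genes that lead the class, a WT nucleus had a median of 3 above 0 (1 to 7) and a nucleus labelled Ehmt1delta/+ a median of 6 (3 to 9). The mean number per plate code was 3.07 to 3.38 in WT and 5.36 to 6 in the other genotype. The genes were chosen for being higher, so this count is a description of how they are spread over nuclei.

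**Figure D2:**
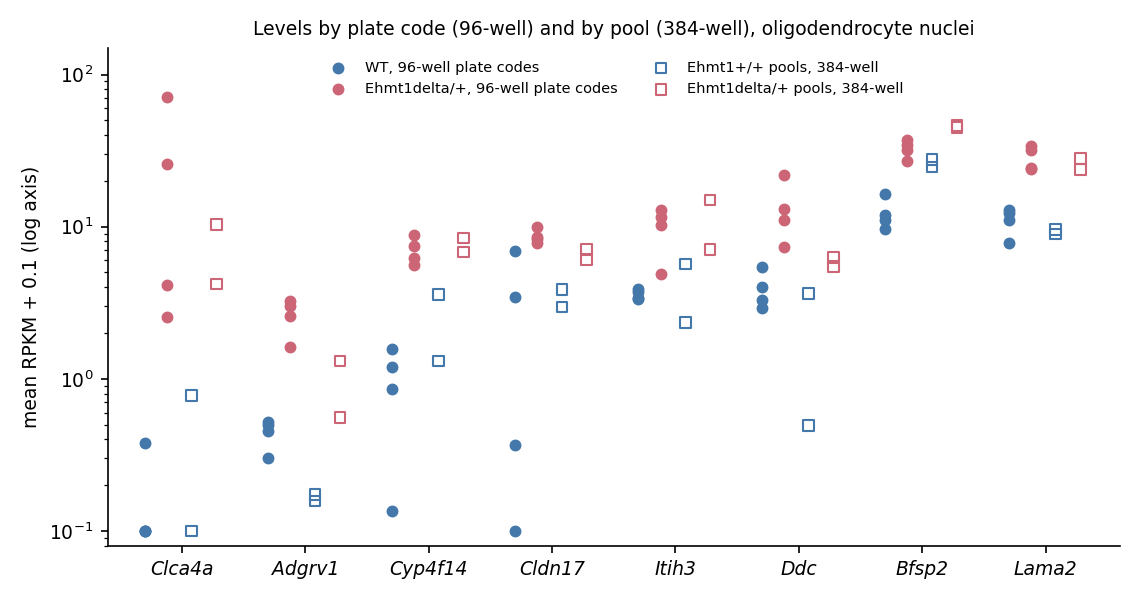
Mean RPKM plus 0.1 (log axis) of 8 genes in oligodendrocyte nuclei. Filled circles are the 4 plate codes of the 96-well plates and open squares the pools of the 384-well plates, blue for WT or *Ehmt1*+/+ and red for Ehmt1delta/+. For each gene the red circles lie above the blue ones, and the red squares above the blue ones. The genes shown are a selection. *Slc51b* and *Cyp3a13*, which also lead the class, lacked this order in the 384-well pools and are not shown. *Rasl12*, which had it, is not shown either, and *Adgrv1* is of the class low in every cell type.

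Leading genes shared between cell types went the same way in all pools in some cases. *Cpq*, a secreted carboxypeptidase, was at 0.735 and 4.65 RPKM in the 96-well plates, at 1.38 and 0.212 in the *Ehmt1*+/+ pools and at 3.86 and 3.44 in the Ehmt1delta/+ pools of the 384-well plates. *Prickle3*, a planar polarity protein, was at 0.989 and 4.36 RPKM, then at 0.357, 0.366, 2.72 and 2.53. *Fcna*, the lectin ficolin A, was at 0.0932 and 4.35 RPKM, then at 0.762, 1.16, 6.8 and 1.79. Of the genes low in every cell type, *Rhoj*, at 4.44 and 11.8 RPKM in the 96-well plates, was at 0.622, 0.727, 0.533 and 1.51 in the 384-well plates. Over all classes, 70 genes, or 33.8% of those 2-fold higher with plate means apart, had both Ehmt1delta/+ pools of the 384-well plates above, against 20% of all genes. Of these 70, 32 were the oligodendrocyte-enriched genes described above. In the shared class it was 21 of 89 (23.6%), near the 20.6% of that class. Among genes low in every cell type it was 9 of 29 (31%), against 14.9%.

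Genes within 500 kb of *Ehmt1* were mostly near equal. *Cacna1b*, the pore subunit of the N-type calcium channel, lies next to *Ehmt1* (chr2:24603887-24763152, minus strand) and is a neuronal gene, at 67.6 and 73.3 RPKM in neurons. In oligodendrocytes it was at 1.51 ± 10.2 RPKM in WT (9 nuclei above 0) and 4.82 ± 8.05 in nuclei labelled Ehmt1delta/+ (27 nuclei), a log2 ratio of 1.61. The WT mean came mostly from the nucleus of code 003 that stood apart, and the log2 ratio was 3.53 without it and 4.95 without the 36 nuclei highest in neuron-enriched RPKM. The 384-well pools were at 0.564 and 0.136 RPKM in *Ehmt1*+/+ and 13.1 and 9.65 in Ehmt1delta/+. *Arrdc1*, an arrestin-domain protein, had a log2 ratio of 1.84 on 3 and 10 nuclei, with no such order in the 384-well pools. *Nsmf*, *Anapc2*, *Ssna1* and *Man1b1*, other neighbours read in most nuclei, had log2 ratios of 0.34, 0, 0.28 and 0, and the neuronal receptor gene *Grin1* one of −1.0.

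A test over pools was also made. It compared the 3 Ehmt1delta/+ with the 3 *Ehmt1*+/+ pools of oligodendrocytes by limma on log2 pool means with the plate format as a block. Of the 20177 genes, 0 (0%) had a Benjamini-Hochberg adjusted p under 0.05, and the lowest adjusted p was 0.465. At an unadjusted p under 0.05 there were 843 genes (4.18%), 480 higher and 363 lower in Ehmt1delta/+. In the oligodendrocyte-enriched class 80 of 1104 were higher and 21 lower at that level. For *Lama2* limma gave a log2 ratio of 1.42 ± 0.16 (SE) with an adjusted p of 0.489. For *Clca4a* it gave 5.43 ± 1.04, for *Adgrv1* 2.41 ± 0.57 and for *Cacna1b* 3.77 ± 0.84, each with a limma adjusted p of 0.946. So no gene passed correction over the pools. The genes named were partly chosen on 2 of these 6 pools.

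The genes of myelin and its lipids did not follow the leading genes. None of the 20 genes of myelin structure passed 2-fold, but 16 were below 0 and the median log2 ratio was −0.31. Of the 20, 6 were lower and 1 higher with plate means apart, against 4.88% and 2.66% of all genes. *Mal* (508 RPKM in WT and 328 in nuclei labelled Ehmt1delta/+), *Cldn11* (642 and 423) and *Cd9* (47.5 and 25.4) were lower, the last with plate means apart, while *Mbp* (809.8 ± 231.3 and 852.1 ± 257.9), *Mobp* (475 and 523) and the gap junction gene *Gjc3* (422 and 448) were not. *Mag* was at 601.3 ± 157.9 (plate means 567.9 to 623.5) and 520.5 ± 163.1 (456.4 to 543.5). Among the 384-well nuclei the median of the list was 0.06.

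The 30 genes of cholesterol and myelin lipid synthesis had a median of −0.28, with 0 past 2-fold and 22 below 0. Plate means lay apart for 4 genes that were lower and 0 that were higher. *Scd2*, a stearoyl-CoA desaturase, was at 741 ± 431 RPKM in WT and 467 ± 367 in nuclei labelled Ehmt1delta/+, and its plate means did not overlap (624.1 to 807.4 and 288.1 to 567.5). *Scd1* was at 62.7 and 33.5 RPKM, and *Ugt8a*, which makes galactocerebroside, at 208.6 and 204.9. The 384-well median was −0.01. Transcription factors of the lineage were near equal, with a median of 0.06 over 14 genes: *Myrf* had a log2 ratio of 0, *Sox10* was at 71.7 and 79.3, and *Olig2* at 40.2 and 46.9. The 34 genes of adhesion, cytoskeleton and transport had a median of 0.02, with 0 past 2-fold. The mitochondrial share of reads also differed between the genotypes (below). Across nuclei of 1 genotype its Pearson's r with *Scd2* was weak, at 0.27 in WT and 0.30 in the other genotype. It was 0.21 and 0.29 with *Cldn11*, −0.15 and 0.05 with *Mbp*, and −0.16 and −0.12 with *Mobp*. These r are across nuclei of 1 pool that share their libraries, and their part in the result was not tested.

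Among 27 receptors, channels and signalling genes the median was −0.19. One was 2-fold higher, *Pdgfc*, a growth factor (0.893 and 3.4 RPKM), which was also above in both Ehmt1delta/+ pools of the 384-well plates (0.354, 0.193, 2.01 and 2.56). Those 2-fold lower include *Spry2*, *Etv5* and *Dusp6*, feedback inhibitors or targets of the ERK pathway. *Spry2* was above 0 in 30 and 10 nuclei (8.58 ± 14.1 and 2.14 ± 6.14 RPKM), *Etv5* in 26 and 7 (3.82 ± 8.26 and 0.797 ± 3.32) and *Dusp6* in 13 and 2 (1.39 ± 3.93 and 0.32 ± 1.92). In the 384-well plates *Spry2* was at 9.31 and 2.87 RPKM in *Ehmt1*+/+ and 1.4 and 11.3 in Ehmt1delta/+, with no order by genotype, and *Etv5* was higher in Ehmt1delta/+ (0.705, 0.824, 1.58 and 1.39).

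Of 13 measured genes of reactive oligodendrocytes and MHC class I, 1 was 2-fold higher and 3 lower, with a median of −0.44. *B2m*, the light chain of MHC class I, was at 27.5 ± 146.3 RPKM in WT (26 nuclei above 0) and 3.63 ± 13.4 in nuclei labelled Ehmt1delta/+ (7 nuclei). Its WT plate means of 3.42, 10.5, 29.2 and 63.2 overlap the others (4.26, 0, 5.99 and 4.44), and 1 WT nucleus reached 1207 RPKM. The complement gene *C4b* was at 36.8 ± 210.5 and 11.4 ± 22.7, and was above 0 in fewer WT nuclei (20) than nuclei labelled Ehmt1delta/+ (24). *Apoe*, a lipid carrier, was at 83.8 ± 89.1 and 39.6 ± 56.3, with plate means that did not overlap. *Casp1*, the inflammasome protease, was above 0 in 1 of 73 WT nuclei (1.37%) and 0 of 71 nuclei labelled Ehmt1delta/+, which allows up to 4.23%, so no difference was detectable at this depth.

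Neuron-enriched genes were 2-fold lower more often (28.1%) than genes of any other nuclear class. They took 2.99 ± 1.13% of the reads of a WT nucleus (median 2.87, 1.85 to 11.2) and 2.25 ± 0.303% of one labelled Ehmt1delta/+ (median 2.24, 1.62 to 2.95). The plate means were 2.71 to 3.45% and 2.06 to 2.36%, which do not overlap. Without the WT nucleus that stood apart, the WT share was 2.87 ± 0.583%, with plate means of 2.71 to 3%. With or without it, 70 of 71 nuclei labelled Ehmt1delta/+ were below the WT median. The 384-well pools had the opposite order: the mean share was 1.61 and 1.54% in *Ehmt1*+/+ and 1.88 and 1.86% in Ehmt1delta/+. Of 26 pan-neuronal genes, 22 were 2-fold lower and 0 higher, with a median log2 ratio of −1.60. Of 13 excitatory genes, 10 were lower (median −1.61), and of 15 inhibitory genes 7 (median −0.54). In neurons of the same pools those medians were −0.37, −0.01 and −0.66, and in oligodendrocytes of the 384-well plates −0.29, 0 and 0.03.

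*Snap25*, a synaptic SNARE protein, was above 0 in all 73 WT nuclei and in 50 of 71 labelled Ehmt1delta/+. It was at 41.3 ± 34.6 RPKM (plate means 31.3, 51.9, 42.8 and 42.9) and 8.88 ± 9.87 RPKM (14.4, 4.88, 3.69 and 10.5), while in neurons it was at 130.4 and 131.1. *Nrgn*, neurogranin, was at 17.7 ± 17 and 2.43 ± 3.97. *Camk2a*, a kinase of excitatory synapses, was at 23.8 ± 23 and 7.84 ± 11.8. Among markers of one neuron type, *Slc17a7*, the vesicular glutamate transporter, was above 0 in 45 and 25 nuclei, *Gad1*, which makes GABA, in 42 and 24, and the neuropeptide *Sst* in 21 and 8.

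The level of neuronal genes in oligodendrocytes was then set against that in neurons of the same pool. Over 2035 neuron-enriched genes with at least 1 RPKM in neurons, the median level was 15.3% of that of neurons in WT and 11.2% in the pool labelled Ehmt1delta/+, and it was lower in the latter for 1361 genes (66.9%). For pan-neuronal genes it was 22.1% and 7.90%, for excitatory genes 16.9% and 4.07%, and for inhibitory genes 11.5% and 12.2%. Genes at 1 to 10 RPKM in WT neurons had 21.2% and 16.3%, and the 27 genes at 100 RPKM or more had 7.50% and 6.89%. RNA carried over from neurons and RNA the oligodendrocytes make themselves cannot be told apart in these files. Once the 36 nuclei highest in neuron-enriched RPKM (29 WT and 7 labelled Ehmt1delta/+) were left out, the median of the pan-neuronal list was −1.35.

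**Figure D3:**
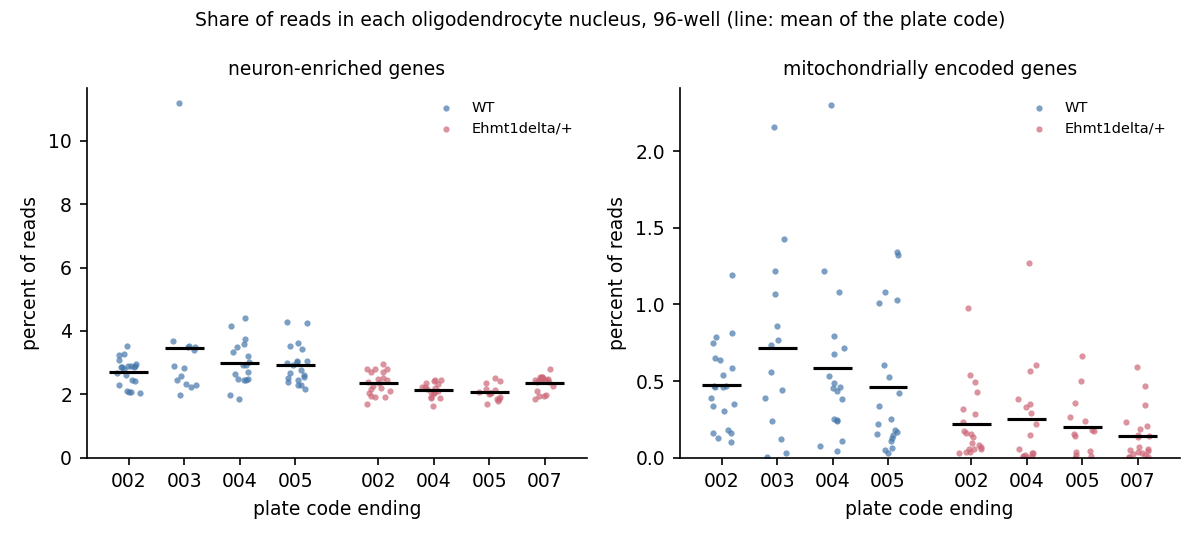
Percent of the reads of each oligodendrocyte nucleus on neuron-enriched (left) and mitochondrially encoded genes (right), by plate code, blue for WT and red for nuclei labelled Ehmt1delta/+, with a line at the mean of each code. The neuron-enriched means were 2.71 to 3.45% in WT (2.71 to 3% without the nucleus at 11.2%) and 2.06 to 2.36% in the others, and the mitochondrial means 0.460 to 0.717% and 0.141 to 0.256%.

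Some neuron-enriched genes went the other way, 7.32% of the class and 36 genes with plate means apart. *Gria2*, an AMPA receptor subunit, was at 4.33 ± 7.96 RPKM in WT and 13.6 ± 17.1 in nuclei labelled Ehmt1delta/+, a log2 ratio of 1.63, and at 128.7 and 129.3 RPKM in neurons. *Far2*, a fatty acyl-CoA reductase that makes fatty alcohols, was at 2.67 ± 3.5 and 6.58 ± 7, and its antisense gene *Far2os1* at 0.0304 and 2.72. Among the 384-well nuclei *Gria2* was at 2.84 and 3.65 RPKM in *Ehmt1*+/+ and 5.98 and 7.94 in Ehmt1delta/+, and *Far2* at 0.59 and 0.858 and at 2.61 and 2.68. *Mfap2*, a microfibril protein, had a log2 ratio of 3.55 but on 1 and 8 nuclei, and was lower in both Ehmt1delta/+ pools of the 384-well plates. As a group, 7 of the 36 (19.4%) were above in both Ehmt1delta/+ pools, which is near the background of 20%. Of the neuron-enriched genes that were 2-fold lower with plate means apart, 22 (10%) were below in both pools, against 13.5% of all genes and 11.9% of the class. More of them, 52 (23.7%), were above in both pools, against 20% of all genes and 21.3% of the class.

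Mitochondrially encoded RNA was lower in the nuclei labelled Ehmt1delta/+. It took 0.544 ± 0.465% of the reads in WT (median 0.457, 0.00620 to 2.30) and 0.203 ± 0.237% in the others (median 0.140, 0.00188 to 1.27), and 61 of 71 of the latter were below the WT median. All 13 mitochondrial mRNAs were 2-fold lower with plate means apart. *mt-Rnr1*, the small ribosomal RNA, was at 1824 ± 1571 and 673 ± 813 RPKM, and *mt-Co1*, a subunit of cytochrome oxidase, had plate means of 203.4 to 340.1 and 77.5 to 144.1. Neurons of the same pools went the same way, with a median log2 ratio of −1.82 over the 13 mRNAs. The 384-well pools showed no order by genotype: the mean share was 0.403 and 1.34% in *Ehmt1*+/+ and 1.06 and 0.714% in Ehmt1delta/+. Without the 36 nuclei highest in mitochondrial share, again 29 WT and 7 others, the median of the mRNAs was −0.71.

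Nuclear genes of the mitochondrion and the ribosome were lower by less. The 74 genes of the respiratory chain had a median of −0.59, with 19 2-fold lower and 0 higher, and the 75 cytosolic ribosomal protein genes a median of −0.42 with 10 lower. *Ndufv3* and *Ndufa11*, of complex I, were at 4.22 and 1.19 and at 2.39 and 0.632 RPKM, and *Rpl41* was at 8.95 and 3.28. Of 6 astrocyte genes 5 were 2-fold lower, *Slc1a2* being at 7.03 ± 12.5 and 1.05 ± 3.55, but *Slc1a3* was at 11.3 and 11.4. Immediate early genes had 6 of 17 lower, *Egr1* being at 9.23 ± 13.6 and 1.94 ± 4.18 RPKM, and its log2 ratio in neurons was −2.01. Of 10 nuclear-retained long noncoding RNAs, 7 were below 0 and 1 was 2-fold lower, with a median of −0.36. *Malat1*, of that list, was not lower, at 6105 ± 1709 and 6626 ± 2104. The part of the mitochondrial share in these lists was not tested.

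The list with the highest median was that of germline genes and of the *Xlr* genes, a multicopy family on the X chromosome. Of its 8 genes compared, 6 were 2-fold higher and 0 lower, with a median of 2.07. *Xlr3b* was above 0 in 3 WT nuclei and 25 labelled Ehmt1delta/+ (1.55 ± 8.18 and 6.28 ± 11.7 RPKM), and *Xlr4a* in 3 and 21 (0.1 and 1.99). Neurons of the same pools had a median of 2.64. In the 384-well plates without CamKII-CreER the median was −2.96, *Xlr3b* being at 0.888 RPKM in *Ehmt1*+/+ and listed at 0 in Ehmt1delta/+, and with CamKII-CreER at 1.24 and 1.76. The *Xlr* genes are close copies that can share reads, so they are not separate measurements. *Sycp3*, a meiotic gene, was at 2.41 and 3.11 RPKM.

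**Figure D4:**
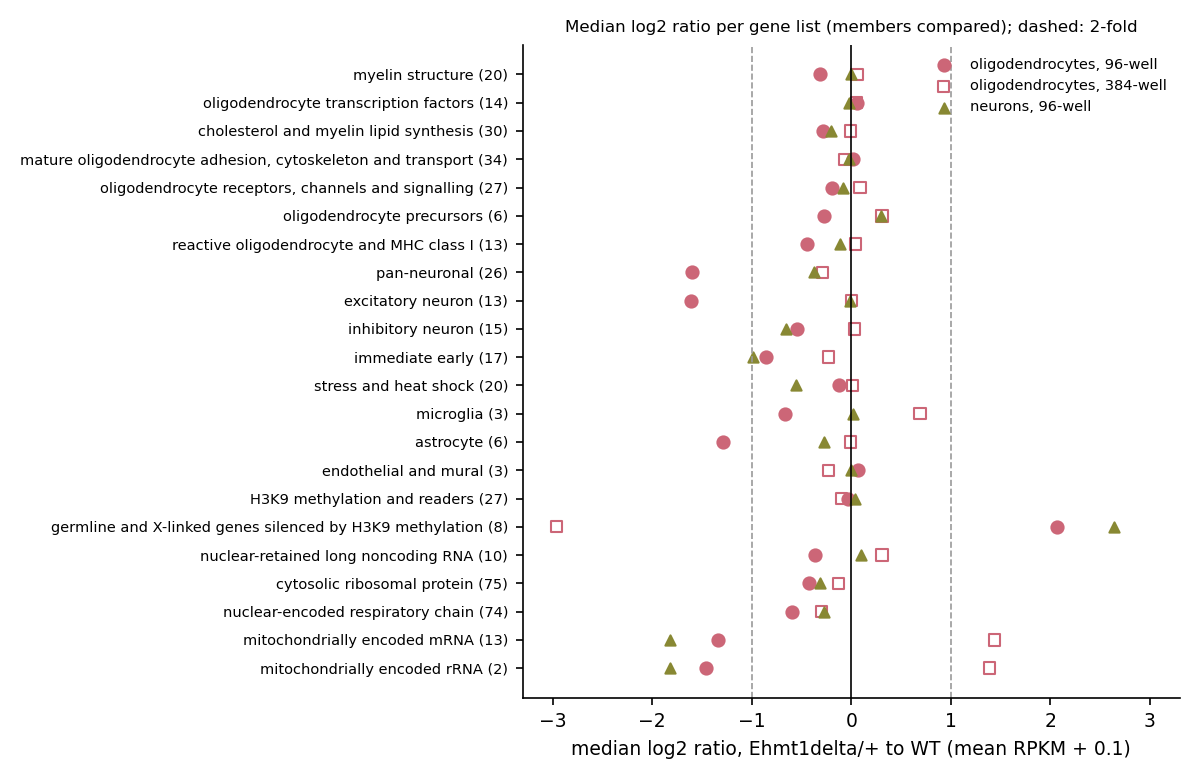
Median log2 ratio (Ehmt1delta/+ to WT) of each gene list in oligodendrocytes of the 96-well plates (filled circles), oligodendrocytes of the 384-well plates without CamKII-CreER (open squares) and neurons of the 96-well plates (triangles), with the number of members compared in parentheses and dashed lines at 2-fold. The pan-neuronal list is at −1.60 in 96-well oligodendrocytes but −0.37 in neurons, and the mitochondrial mRNA list is at −1.34 and −1.82 in the 96-well plates but 1.44 in the 384-well plates.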

How the data were processed

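Single nuclei of mouse cortex were sorted into plates and sequenced by RamDA-seq. Per the study's methods, the authors trimmed reads with Fastq-mcf, mapped them to mm10 with HISAT2 2.0.4, counted reads per Gencode gene with featureCounts (Subread 1.5.0) by default settings, which ignore strand, and removed poor nuclei and nuclei with weak cell type features. They deposited RPKM values of 52636 genes, in separate tables for the plate formats, and the deposited RPKM were used without rescaling. Versions are those of the submitters' processing notes. Of values above 0, 64.1% were whole reads within 0.01, and the rest were fractions of a read. Read totals per nucleus follow from the same steps. Depth is given at the head of the report. Coordinates come from GENCODE M21, of the same build.

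Nuclei were grouped by the labels, each column matching 1 sample by name. Means of RPKM per pool gave log2 ratios, with 0.1 added, for genes read in 10% or more of the nuclei of either genotype. Classes used 4 times the level of other cell types, or of oligodendrocytes alone for the neuron-enriched class, among genes of at least 1 RPKM. Gene names follow this rule: the genes within 500 kb of *Ehmt1*; per class up to 10 highest and 10 lowest genes past 2-fold with plate means apart and at least 1 RPKM; per list the 3 most abundant members and up to 4 past 2-fold; and *Gad1*, *Sst*, *Slc17a7* and *Casp1*. Genes within 100 kb of *Clca4a*, *Adgrv1*, *Lama2* and *Bfsp2*, and some list members, were named after their values were seen. The members and the 22 gene lists were chosen with earlier results of these data known. Authors' comparison tables were not used. Some genes are not reported here.

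Shares carry exact Clopper-Pearson intervals at 95%, and a share of 0 the limit of 3 counts. limma 3.58.1 in R 4.3.3, a test added after seeing the data, compared the 6 pools with Benjamini-Hochberg adjustment at 0.05. The steps were tested on simulated data. Python 3.11.15 ran the remainder, with SciPy 1.17.1, pandas 2.3.3, matplotlib 3.10.9 and numpy 2.4.6. The alternatives varied the pseudocount, detection filter, plate codes, scaling, class threshold, nuclei kept and depth.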

Additional observations from a re-analysis of the deposited data

Results flagged for a closer look

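A total of 3 lists were past 2-fold in both plate formats but in opposite directions, compared between Ehmt1delta/+ and *Ehmt1*+/+ oligodendrocytes without CamKII-CreER. The same held for 12 of the named genes, counted only if the pools with CamKII-CreER also kept the order given below. Named genes past 2-fold in opposite directions but without that order, such as *Slc51b*, *Arrdc1* and *Xlr3b*, were not counted. The difference between the formats was not tested, since each holds 1 pool per genotype without CamKII-CreER.

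For the germline and X-linked list the median log2 ratio was 2.07 (96-well) and −2.96 (384-well), −1.34 and 1.44 for mitochondrially encoded mRNA, and −1.46 and 1.39 for mitochondrially encoded rRNA.

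For the 12 genes both Ehmt1delta/+ pools of the 384-well plates lay above, or both below, both *Ehmt1*+/+ pools, as the rule for counting them required. Those lower in the 96-well but higher in the 384-well format were *Chchd10*, a mitochondrial protein (log2 ratios of −2.64 and 2.92), *Jcad*, a junction protein (−2.04 and 3.17), the sodium channel *Scn1a* (−4.09 and 1.68), the phosphatase *Ptpn5* (−3.81 and 1.33), *Fam43b* (−3.66 and 2.78), *Rgs14* (−3.56 and 1.03), *Cst3* (−1.30 and 1.72), *Etv5* (−2.13 and 1.06), *Dusp6* (−1.83 and 1.16) and *Cck* (−1.37 and 2.05). The opposite held for *Mfap2* (3.55 and −2.21) and *Cyb561a3* (1.15 and −3.22). In oligodendrocytes of the 384-well plates *Scn1a*, *Ptpn5*, *Fam43b* and *Rgs14* were under 1 RPKM in each pool. *Ptpn5* and *Fam43b* were at 0 in every 96-well nucleus labelled Ehmt1delta/+, so their ratios there depend on the 0.1 RPKM added.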

How the results depend on the processing

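Each genotype is 1 pool of 3 mice, the *Ehmt1* RNA goes against the label, and fold changes of genes read in few nuclei rest on few values. No paired analysis was possible because the labels give no replicate number or mouse that nuclei of the 2 genotypes share. Of the named genes past 2-fold, 83 (58.5%) stayed past 2-fold under all 18 alternatives run on them. *Snhg11* reversed, from −1.58 to 0.61 with only the shared plate codes, −2.04 to 0.56 when 1 plate code was left out (0.56 without the WT code 003), 0.52 with each genotype's highest value left out, 0.71 without the 36 nuclei highest in neuron-enriched RPKM and 0.74 without the WT nucleus that stood apart.

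The number of genes past 2-fold depended on how weakly read genes were handled, since fewer or more of them then pass. Against 3.99% of genes higher and 7.68% lower, a pseudocount of 1 RPKM gave 1.52% and 2.70%. It gave 0.815% of oligodendrocyte-enriched genes lower, 0.881% and 1.80% of shared, 3.27% and 10.5% of neuron-enriched and 1.48% and 3.23% of microglia-enriched genes higher and lower, and a respiratory chain median of −0.38. Detection in 30% of nuclei gave 1.57% higher and 4.66% lower of the genes then compared, with 5.21% and 0.638% of oligodendrocyte-enriched, 1.08% and 3.31% of shared, 2.42% and 27.4% of neuron-enriched and 2.37% and 6.82% of microglia-enriched genes. No filter gave 8.20% higher and 12% lower, with 3.93% of oligodendrocyte-enriched lower, 3.72% of shared higher, 12.6% and 29.9% of neuron-enriched, 5.41% of mitochondrially encoded higher, and 11.2% and 15.1% of microglia-enriched genes. A class threshold of 8 times gave 1.66% of oligodendrocyte-enriched genes lower, 6.74% of neuron-enriched higher, and 8.55% and 8.88% of microglia-enriched genes higher and lower. In all of these the oligodendrocyte-enriched class had more genes higher than lower.

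Fewer nuclei also moved some values, and the cause was not tested. The 3 shared plate codes gave 3.44% of oligodendrocyte-enriched genes lower and a stress list median of −0.42. Leaving out 1 plate code at a time gave −0.42 (without the code 007 of nuclei labelled Ehmt1delta/+) to 0.01 for that list. Without the 36 nuclei highest in neuron-enriched RPKM, 6.66% of genes were higher, with 4.73% of shared, 12.1% of neuron-enriched and 10.7% of microglia-enriched genes, 57.1% of mitochondrially encoded genes were lower, the inhibitory list was at −0.01 and the respiratory chain list at −0.45. Without the 36 highest in mitochondrial share, an alternative chosen after seeing the data, 20% of mitochondrially encoded genes were lower, with medians of −0.71 for mitochondrial mRNA, −0.90 for mitochondrial rRNA and −0.41 for the respiratory chain list. As a median over nuclei, the mitochondrial share of nuclei labelled Ehmt1delta/+ was 0.14%. Thinned to 382781 reads, *Casp1* was at 0% in WT. limma over the 6 pools gave 0 genes at an adjusted p under 0.05 in each of its 11 alternatives.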
